A study of Mus musculus with 39 samples.

Results

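Neocortex and hippocampus were compared within 5 control mice on whole-transcript microarrays, 1 cortex and 1 hippocampus sample from each animal, matched by the mouse number that the sample labels carry. These 10 samples were all the control cortex and control hippocampus samples among the 39 of the study. The other samples came from the amygdala and hypothalamus of the same control mice and from the same 4 regions of 5 mice lacking *Pianp* (PianpKO), a gene for a neuronal membrane protein that binds the GABAB receptor. The 4 control amygdala samples lack mouse 4, and they and the 5 control hypothalamus samples are given here only as levels. Control mice were not wild type: they carried the floxed *Pianp* allele, obtained by crossing Pianptm1a(KOMP)Wtsi animals with the ACTFLPe deleter line. PianpKO mice carried the constitutive deletion made from that allele with CMV-cre. All were experimentally naive adult males, with ages stated only as a range for the whole study. The regions were punched by hand from coronally cut brains, so a sample holds every cell type in the punch, and the cortical area taken is not stated. In such bulk tissue, fewer cells of a type and less RNA per cell cannot be told apart.

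The neocortex is built of stacked layers of projection neurons, each with its own targets and transcription factors, whereas the hippocampus is a simpler, older cortex of granule cells in the dentate gyrus and pyramidal cells in fields CA1 to CA3. Both are pallial and share glutamatergic principal cells and several classes of GABAergic interneurons. The hippocampal formation lies against the dorsal thalamus, the habenula and the choroid plexus of the lateral ventricle, and the neocortex lies over the striatum and the white matter.

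Values were log2 levels of 25429 probe sets, 1 for each gene of the annotation, and a difference is always cortex minus hippocampus on the log2 scale, so that a value of 1 stands for a 2-fold higher level in cortex. Levels of different genes are not compared, because probe sets differ in brightness. No detection call was used here. Of the named genes called, 13 had a cortex mean and 4 a hippocampus mean at or below the median of the array (4.62), and 1 (*Gm8741*) had both. A measured level on the low side was not shown for these 18, among them *Npy2r*, *Kcnj13*, *Spink8*, *Lct*, *Slitrk6* and *Gm765*. Their log2 differences are printed, but they are not to be read as folds. A probe set was called when its adjusted p was under 0.05 in limma's moderated test with the mouse as a block, with the Benjamini-Hochberg adjustment taken over all 25429 probe sets. The p-values measure how the difference within a mouse spreads between these 5 mice. Each gene's variance is also drawn toward that of the other probe sets (prior df 3.23, residual df 4). The targeted gene read as labelled: *Pianp* levels were 7.08 to 8.16 in the 10 control samples and 5.1 to 6.01 in the 10 PianpKO cortex and hippocampus samples.

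In control mice 1390 probe sets were higher and 1539 lower in cortex, that is 5.47% and 6.05% of those tested. By more than 1 on the log2 scale, 99 (0.389%) were higher and 210 (0.826%) were lower. The differences were lopsided in size: 42 called probe sets were lower by more than 2 and only 3, *Gm765*, *Trbj2-3* and *Dkkl1*, were higher by that much. The median difference over all probe sets was 0.0121. Fewer mice gave fewer calls: without mouse 1 there were 729 higher and 828 lower, and without mouse 2 there were 737 and 846. The array-to-array correlation was 0.990 to 0.996 within groups and 0.981 to 0.992 between the control cortex and hippocampus samples.

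**Figure D1:**
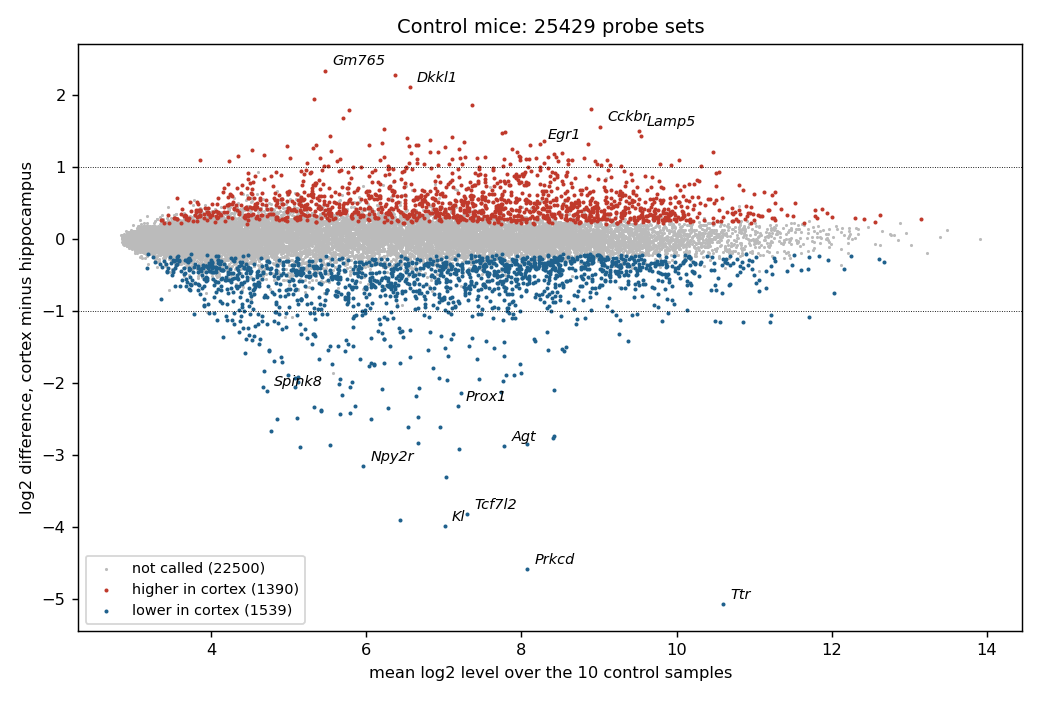
Log2 difference between cortex and hippocampus (vertical axis) against the mean log2 level over the 10 control samples (horizontal axis), 1 point per probe set, coloured by call, with dotted lines at differences of 1 and -1. The points reach -5.07 (*Ttr*) on the hippocampal side and 2.34 (*Gm765*) on the cortical side.

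The region labels were checked first against markers of the 2 kinds of cortex. The mean level of 7 neocortical markers was 8.77 to 8.93 in cortex and 7.79 to 8.36 in hippocampus, and that of 9 hippocampal markers was 5.80 to 6.06 and 7.12 to 7.70. Among hippocampal markers, *Prox1*, the transcription factor of dentate granule cells, read 5.78, 6.02, 6.0, 6.36 and 5.95 in the cortex of mice 1 to 5 and 8.65, 8.41, 7.68, 8.48 and 8.51 in their hippocampus. *Spink8*, a CA1 marker, read 3.47, 3.77, 3.81, 3.58 and 3.7 in cortex and 5.82, 5.81, 5.72, 5.28 and 6.27 in hippocampus. *Lct*, which is found in dentate granule cells of the mouse brain, read 3.7, 3.94, 3.9, 3.86 and 3.93 in cortex and 6.73, 6.73, 5.41, 5.94 and 6.91 in hippocampus. The groups did not overlap for any of these genes, and the hippocampus sample of mouse 3 was the lowest of its group for *Prox1* and *Lct*. The differences were -2.32 ± 0.16 (SE; adjusted p = 6.47e-04), -2.11 ± 0.13 (adjusted p = 4.23e-04) and -2.48 ± 0.23 (adjusted p = 0.00153). The desmosome gene *Dsp* (-2.5, adjusted p = 0.00194), the synaptic C1q-like protein *C1ql2* of mossy fibres (-2.83, adjusted p = 0.00235), *Zbtb20* (-0.98, adjusted p = 0.00166), *Amigo2* (-1.11, adjusted p = 0.00305) and the kainate receptor subunit *Grik4* of CA3 (-0.42, adjusted p = 0.00707) were likewise lower in cortex. *Fibcd1* was too (-0.99, adjusted p = 0.014), although its adjusted p was 0.0588 without mouse 1. *Wfs1*, a CA1 marker that other pallial neurons also express, did not pass the test (-0.52 ± 0.15, adjusted p = 0.0792).

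Neocortical markers ran the other way but were also present in hippocampus samples. *Lamp5*, a membrane protein of upper-layer and neurogliaform cells, read 10.29, 10.23, 10.32, 10.13 and 10.36 in the cortex of mice 1 to 5 and 7.99, 8.64, 9.1, 9.07 and 9.04 in their hippocampus. *Tbr1*, the transcription factor of layer 6, read 9.15, 9.18, 9.09, 8.96 and 9.22 in cortex and 7.09, 7.86, 8.35, 8.35 and 7.99 in hippocampus. *Fezf2*, which specifies layer 5 subcortical projection neurons, read 8.5, 8.67, 8.74, 8.42 and 8.75 in cortex and 6.76, 7.64, 7.87, 7.4 and 7.86 in hippocampus. The groups did not overlap for these genes, which for *Lamp5* was a condition of the rule that named it. The hippocampus of mouse 1 was the lowest sample for each of these genes. The differences were 1.5 ± 0.17 (adjusted p = 0.00279), 1.19 ± 0.20 (adjusted p = 0.0099) and 1.11 ± 0.13 (adjusted p = 0.0030). *Rspo1*, a secreted Wnt agonist, differed by 1.34 ± 0.078 (adjusted p = 3.84e-04), and the layer 4 nuclear receptor *Rorb* by 0.48 ± 0.070 (adjusted p = 0.00608). *Cux2* of the upper layers passed with all 5 mice (0.54, adjusted p = 0.032) but not when mouse 1, 2, 3 or 5 was left out (adjusted p = 0.0596 to 0.0965). *Foxp2* (-0.16, adjusted p = 0.57) and *Rasgrf2* (0.37, adjusted p = 0.0622) did not pass.

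**Figure D2:**
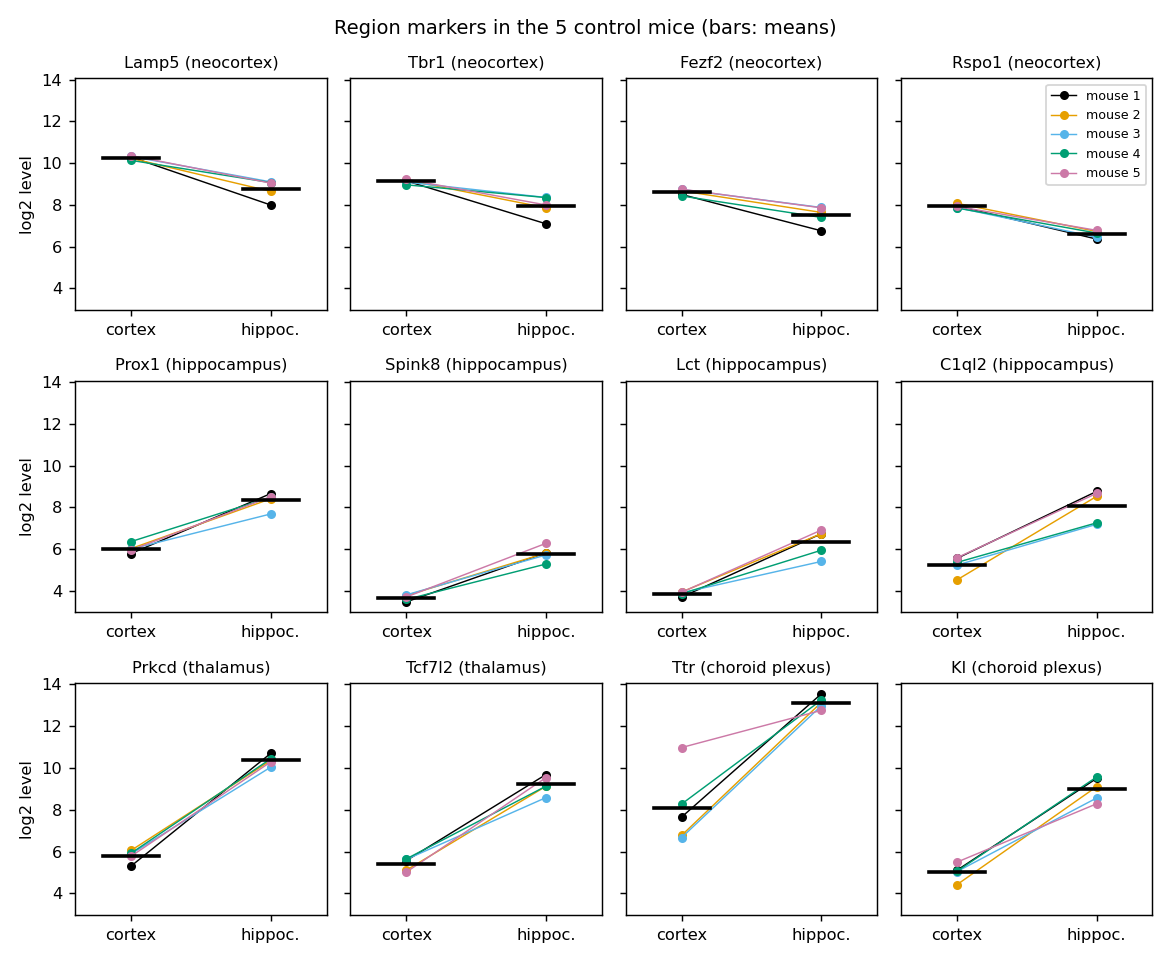
Log2 level (vertical axis) of 12 region markers in the cortex and hippocampus of the 5 control mice, with a line joining the 2 samples of a mouse and a bar at each group's mean. The neocortical markers step down from cortex to hippocampus, the hippocampal, thalamic and choroid plexus markers step up, and the *Ttr* level of 10.98 in the cortex of mouse 5 stands above the other cortex samples.

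Genes of neighbouring tissue were among the largest differences. Of 15 measured thalamic genes, 14 were lower in cortex, with a median difference of -2.38. *Prkcd*, a protein kinase C isoform abundant in thalamic relay neurons, read 5.3, 6.05, 5.88, 5.92 and 5.77 in cortex and 10.7, 10.36, 10.04, 10.44 and 10.29 in hippocampus, a difference of -4.58 ± 0.17 (adjusted p = 1.27e-04). *Tcf7l2*, the Wnt effector that marks the thalamus and habenula, read 5.56, 5.11, 5.62, 5.65 and 5.01 in cortex and 9.69, 9.12, 8.58, 9.13 and 9.54 in hippocampus, a difference of -3.82 ± 0.21 (adjusted p = 2.88e-04). No hippocampus sample came near any cortex sample for either gene, but a lack of overlap was a condition of the rule that named them. *Calb2* (-3.3), *Plekhg1* (-2.92), the transcription factor *Zic1* (-2.77), the vesicular glutamate transporter *Slc17a6* (-2.74) and *Ntng1* (-2.46) followed, with adjusted p between 1.27e-04 and 8.52e-04. *Pdp1* was the 1 thalamic gene not called. The nicotinic subunits *Chrna3* (-2.42, adjusted p = 0.00383) and *Chrnb4* (-1.92, adjusted p = 0.00441), which are dense in the medial habenula, and the tachykinin *Tac2* (-1.94, adjusted p = 0.00254) were lower in cortex as well. The mean level of the thalamic list was 6.24 to 6.42 in control cortex and 8.09 to 8.87 in control hippocampus, against 6.50 to 6.83 in amygdala and 6.93 to 7.30 in hypothalamus.

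The choroid plexus and ependyma list behaved alike, with 12 of 13 members lower in cortex and a median of -1.58. *Ttr*, the thyroxine carrier secreted by the choroid plexus, read 7.65, 6.77, 6.67, 8.27 and 10.98 in cortex and 13.55, 13.14, 12.98, 13.25 and 12.76 in hippocampus. Mouse 5 had by far the highest cortex value (difference -5.07 ± 0.64, adjusted p = 0.00392). It still lay below every hippocampus sample, which was a condition of the rule that named the gene. *Kl* (klotho, -3.99, adjusted p = 6.53e-04), the inward rectifier *Kcnj13* (-3.89, adjusted p = 5.77e-04), the chloride channel *Clic6* (-2.61, adjusted p = 0.00148) and the BMP and Wnt antagonist *Sostdc1* (-2.17, adjusted p = 0.00284) were lower in cortex too, *Kcnj13* being a choroid plexus gene outside the list. The mean level of this list was 4.63 to 5.16 in control cortex and 6.28 to 7.18 in control hippocampus. In the opposite direction, 8 of 16 striatal genes were higher and 1 lower in cortex (median 0.545), led by the dopamine receptor *Drd1* (1.19 ± 0.14, adjusted p = 0.00288). A count of 1 lower of 16 is near the 6.05% of all probe sets that were lower. Only 4 and 5 striatal genes were higher without mouse 2 and mouse 1, and 5 without mouse 5, and without the mouse block the count was 1. The striatal list averaged 6.93 to 7.49 in cortex and 6.34 to 7.21 in hippocampus. What part these tissues have in any gene's difference was not tested. Members of these tissue lists are named with the lists below that they enter. A gene not marked in this way was not shown to be free of these tissues.

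Of 20 genes of layers 2 to 4, 11 were higher and 3 lower in cortex, with a median difference of 0.490. The voltage-gated potassium channel *Kcnh5* (1.12, adjusted p = 0.00674) and the GTPase-activating protein *Stard8* (1.11, adjusted p = 0.00128) were higher, while *Mdga1*, a membrane protein that binds neuroligins, was lower (-1.48, adjusted p = 4.66e-04). Without mouse 1 the count of higher genes was 7, and with any 1 mouse left out the count of lower genes was 2. Layer 5 genes were divided (3 higher and 4 lower of 18, median 0.0828). The lowest, *Htr2c*, is described with the serotonin receptors. Here *Fezf2* and the LIM cofactor *Ldb2* (0.86, adjusted p = 0.00322) were higher, and *Vat1l*, a marker of large layer 5 neurons, was lower (-1.43, adjusted p = 0.0013). Of 21 genes of layers 6 and 6b, 5 were higher and 2 lower (median 0.164). The subplate genes *Cplx3*, a complexin (1.01, adjusted p = 6.05e-04), and *Ccn2*, a matricellular protein (0.91, adjusted p = 0.00501), were higher in cortex beside *Tbr1*. The count of lower genes was 0 without mouse 3 and 1 without mouse 1, 4 or 5.

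The hippocampal field lists had more members lower than higher in cortex, narrowly so for CA1. Of 20 dentate granule cell genes, 10 were lower and 3 higher in cortex (median -0.335). The lower ones included the guidance protein *Sema5a* (-1.5, adjusted p = 0.00247). Of 14 CA1 genes, 5 were lower and 4 higher (median -0.278). The mineralocorticoid receptor *Nr3c2*, through which hippocampal neurons sense basal corticosterone, read 7.28, 7.18, 7.49, 7.43 and 7.46 in cortex and 8.51, 8.7, 8.05, 8.5 and 8.57 in hippocampus, with no overlap (-1.1 ± 0.13, adjusted p = 0.00292). The proteoglycan *Dcn* was also lower in cortex (-1.29, adjusted p = 0.00175), and *Mpped1*, which neocortical neurons express too, was higher (1.12, adjusted p = 0.0115). Of 14 CA2 genes, 7 were lower and 2 higher (median -0.365), with *Necab2*, a calcium-binding protein (-1.74, adjusted p = 0.00341), among the lower. *Sostdc1* is counted both there and in the choroid plexus list. The CA3 and mossy cell list had 10 lower and 2 higher of 18 (median -0.511). Its largest differences, *Prkcd* and *Calb2*, are thalamic list members too, and 1 of the 2 higher was the striatal dopamine receptor *Drd2* (0.54, adjusted p = 0.0107), a call lost without the mouse block (adjusted p = 0.385). The others included the zinc finger factor *St18* (-1.45, adjusted p = 0.0018) and the copine *Cpne4* (-1.32, adjusted p = 2.30e-04). In the subiculum and retrosplenial list 6 were lower and 3 higher of 13 (median -0.509), led by *Slc17a6*, also a thalamic gene. Leaving out 1 mouse gave 7 to 9 lower dentate genes, 4 to 6 CA1, 5 to 7 CA2 and 9 to 10 CA3 genes. The higher CA1 count stayed at 4, so without mouse 1 the CA1 list had 4 lower and 4 higher.

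**Figure D3:**
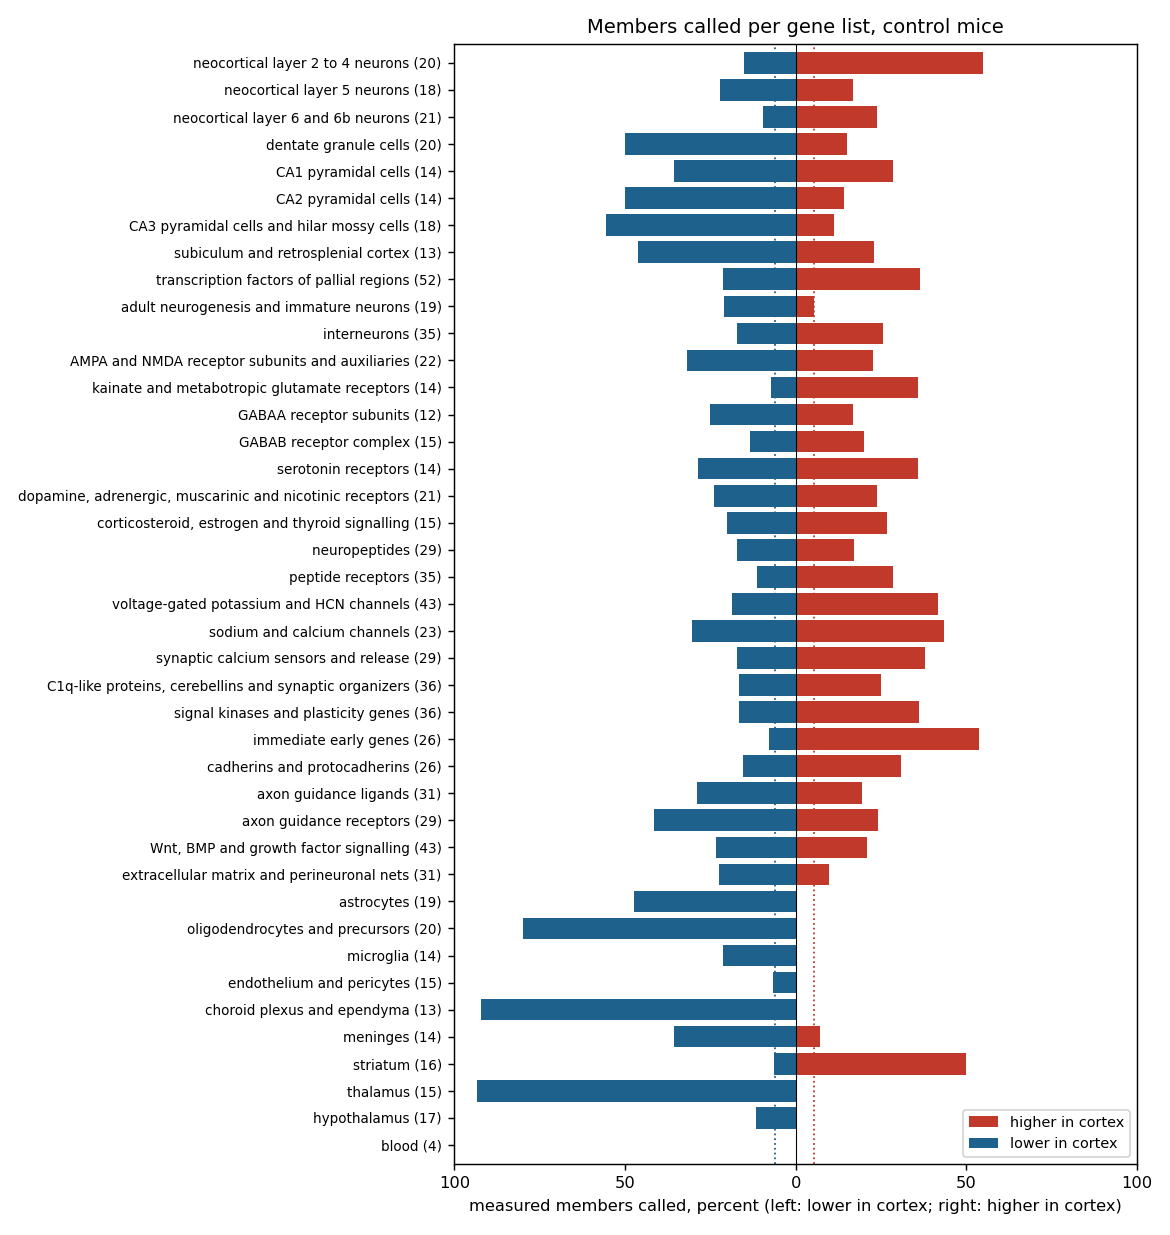
Percentage of each list's measured members called higher (right) or lower (left) in control cortex than in hippocampus, with the number of measured members in brackets and dotted lines at 5.47% and 6.05%, the shares over all probe sets. Thalamic, choroid plexus and oligodendrocyte lists lie to the left, and layer 2 to 4 and immediate early gene lists lie furthest to the right together with the striatal list.

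Of 52 transcription factors with known regional roles in the pallium, 19 were higher and 11 lower in cortex (median 0.177). The 5 largest differences were all negative, and *Tcf7l2* and *Lef1* among them are thalamic genes of the list above, as is *Rora* further down. *Lef1* (-1.79, adjusted p = 8.52e-04) and *Tcf7l2* are partners of beta-catenin. *Nr2f2* (COUP-TFII), a nuclear receptor of caudal pallium and its interneurons, read 5.55, 4.87, 5.14, 5.17 and 5.44 in cortex and 6.87, 6.98, 7.23, 6.89 and 6.85 in hippocampus (-1.73 ± 0.13, adjusted p = 8.91e-04), and the LIM homeobox gene *Lhx9* differed by -1.56 (adjusted p = 0.00116). For both genes every hippocampus sample was above every cortex sample. Without mouse 1 or mouse 2 the higher count was 13. *Shox2*, a homeobox gene of thalamic neurons outside this list, was lower in cortex as well (-2.67, adjusted p = 0.00128).

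Adult neurogenesis takes place in the dentate gyrus, and of 19 genes of progenitors and immature neurons 4 were lower and 1 higher in cortex (median -0.0521). Of all probe sets 6.05% were lower and 5.47% higher, so 1 higher gene of 19 is near that share. The 4 lower genes include *Calb2*, also a thalamic gene, and the count was 2 without mouse 1, 2, 3 or 5. The 1 higher gene was *Dcx*, the microtubule protein of migrating neurons. It read 6.49, 5.71, 6.3, 6.49 and 6.27 in cortex and 5.63, 5.05, 5.42, 5.76 and 5.84 in hippocampus. It was higher in cortex in 5 of 5 mice although the groups overlapped, because the cortex of mouse 2 was low (0.71 ± 0.079, adjusted p = 0.00259).

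Interneuron genes were split, with 9 higher and 6 lower of 35 (median 0.255). *Vip*, the peptide of a disinhibitory interneuron class, read 8.55, 8.64, 8.59, 8.43 and 8.47 in cortex and 6.14, 6.62, 7.48, 7.48 and 7.5 in hippocampus. The cortex samples lay close together, and the hippocampus of mice 1 and 2 was lowest (1.49 ± 0.23, adjusted p = 0.00775). The groups did not overlap, which was a condition of the rule that named *Vip*. Neuropeptide Y (*Npy*, 0.82, adjusted p = 0.00788) was higher in cortex as well, and *Sst* (0.45 ± 0.13, adjusted p = 0.063) and *Cck* (0.26 ± 0.069, adjusted p = 0.059) did not pass. The RNA-editing family member *Adarb2* (-1.76, adjusted p = 0.00128) and the synuclein *Sncg* (-2.06, adjusted p = 0.00284) were lower in cortex, as were *Tac2* and *Calb2*, the latter a thalamic list gene. *Tac1* of this list is also in the striatal list. Without mouse 1 or mouse 2, 6 genes were higher.

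Peptide receptors gave some of the widest differences. Of 35 measured, 10 were higher and 4 lower in cortex (median 0.0686). *Npy2r*, the presynaptic Y2 receptor, read 4.14, 4.73, 4.22, 4.58 and 4.24 in cortex and 7.73, 7.74, 7.25, 7.18 and 7.77 in hippocampus, at amygdala and hypothalamus means of 7.21 and 7.17. It was lower in cortex (-3.15 ± 0.14, adjusted p = 1.79e-04), where the mean lay below the array median, and cortex was the lowest of the 4 regions. *Cckbr*, the brain cholecystokinin receptor, went the other way, with 9.74, 9.95, 9.8, 9.63 and 9.86 in cortex and 7.49, 8.29, 8.79, 8.02 and 8.6 in hippocampus (1.56 ± 0.16, adjusted p = 0.00229). The delta opioid receptor *Oprd1* (1.41, adjusted p = 8.91e-04) and the relaxin receptor *Rxfp1* (1.3, adjusted p = 0.00288) were higher in cortex, and the VIP receptor *Vipr2* was lower (-1.53, adjusted p = 0.00135), opposite to its ligand. Without mouse 1, 2 or 3 the lower count was 2. Steroid and thyroid genes were divided, 4 higher and 3 lower of 15 (median -0.0239), with *Nr3c2*, given above, among the lower. The thyroid hormone receptor *Thrb* (0.85, adjusted p = 0.00343), the deiodinase *Dio2* (0.78, adjusted p = 0.00661) and the stress peptide receptor *Crhr1* (0.79, adjusted p = 0.00568) were higher in cortex. The glucocorticoid receptor *Nr3c1*, partner of *Nr3c2* in corticosterone sensing, differed by 0.22 ± 0.058 (adjusted p = 0.0532, and 0.0205 without the mouse block).

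Serotonin receptors were divided, 5 higher and 4 lower of 14 (median 0.0408). *Htr2c* read 7.05, 7.35, 7.27, 7.42 and 7.79 in cortex and 9.78, 9.51, 9.37, 9.34 and 9.35 in hippocampus (-2.09 ± 0.15, adjusted p = 8.50e-04). It is also expressed by choroid plexus cells and was highest in amygdala and hypothalamus, with means of 10.13 and 10.17. *Htr5b*, found in the habenula and hippocampus, was lower in cortex too (-1.89, adjusted p = 0.00175). *Htr2a*, the excitatory receptor of layer 5 dendrites, read 8.62, 8.86, 8.88, 8.58 and 8.92 in cortex and 6.89, 7.25, 7.99, 7.41 and 7.78 in hippocampus (1.31 ± 0.13, adjusted p = 0.0018). *Htr1f* (0.96, adjusted p = 0.00435) and *Htr5a* (0.91, adjusted p = 0.00257) were higher in cortex as well. *Htr1a* had wide replicate spread in both regions and no call (0.24 ± 0.20, adjusted p = 0.568). Without mouse 1, 3 or 5 the higher count was 3.

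Of 22 AMPA and NMDA receptor genes and auxiliary subunits, 5 were higher and 7 lower (median 0.00229), and the auxiliaries moved most. *Shisa6*, which slows AMPA receptor desensitization, read 6.22, 6.8, 6.64, 6.96 and 6.65 in cortex and 9.71, 9.62, 9.12, 9.39 and 9.64 in hippocampus. That is 7.16-fold lower in cortex (-2.84 ± 0.15, adjusted p = 2.72e-04). The groups did not overlap, which was a condition of the rule that named *Shisa6*. *Cacng5* was lower (-0.88, adjusted p = 0.00481), while *Cacng3* (0.80, adjusted p = 0.0040) and *Gsg1l* (0.91, adjusted p = 0.00125) were higher. The core subunit *Gria2* differed by 0.22 ± 0.061 (adjusted p = 0.0674), and *Grin2d* was lower in cortex (-0.67, adjusted p = 0.00435). Without mouse 1 the lower count was 4. Of 14 kainate and metabotropic receptor genes, 5 were higher, among them *Grik3* (0.98, adjusted p = 0.00247) and *Grm8* (0.78, adjusted p = 0.00396), and 1, *Grik4*, was lower. A count of 1 lower of 14 is near the 6.05% of all probe sets that were lower.

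For GABA, 2 GABAA subunits were higher and 3 lower of 12 measured (median -0.108). *Gabra5*, the subunit of extrasynaptic receptors on hippocampal pyramidal cells, read 10.06, 10.08, 10.13, 9.95 and 10.21 in cortex and 10.79, 11.06, 10.61, 10.57 and 10.95 in hippocampus (-0.71 ± 0.080, adjusted p = 0.00273). *Gabra3* was higher in cortex (0.81, adjusted p = 0.00898). The lower count ranged from 1 without mouse 1 to 5 without mouse 4. Around the GABAB receptor, 3 of 15 genes were higher and 2 lower, and 1 was lower without mouse 1, 2, 3 or 4. *Pianp* read 8.04, 7.79, 8.16, 8.01 and 8.07 in cortex and 7.25, 7.08, 7.68, 7.6 and 7.68 in hippocampus, a 1.47-fold higher level in cortex (0.56 ± 0.078, adjusted p = 0.00563). The auxiliary subunits went opposite ways, *Kctd12* lower (-0.76, adjusted p = 0.00312) and *Kctd16* higher in cortex (0.55, adjusted p = 0.00822). *Gabbr2* differed by -0.04 ± 0.060 (adjusted p = 0.788), and *Gabbr1* by -0.24 ± 0.056 (adjusted p = 0.034), a call lost when any 1 mouse was left out (adjusted p = 0.0651 to 0.119). *Erdr1* (-0.05, adjusted p = 0.763), *Ccl28* (-0.01, adjusted p = 0.968) and *Actb* (-0.18, adjusted p = 0.0885) were not called between the regions.

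**Figure D4:**
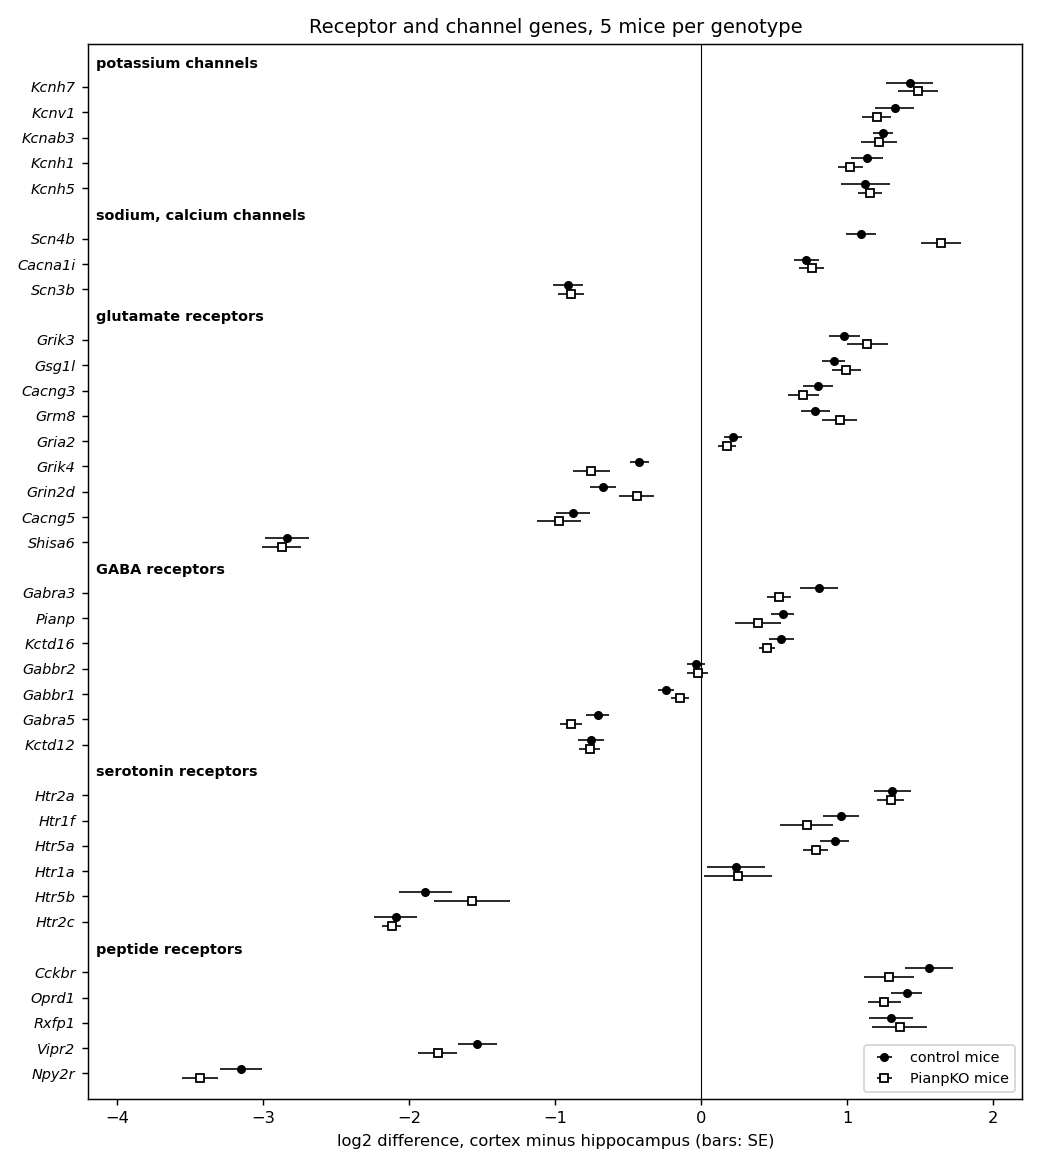
Log2 difference, cortex minus hippocampus (horizontal axis), with its SE for 35 receptor and channel genes in control mice (filled circles) and PianpKO mice (open squares), 5 mice each. Most families have members on both sides of 0, from -3.15 for *Npy2r* to 1.56 for *Cckbr* in control mice.

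Potassium channel genes leaned to cortex, with 18 higher and 8 lower of 43 (median 0.132). Of the 6 ether-a-go-go (Kcnh) genes in the list, 5 were higher. *Kcnh7* read 10.48, 9.99, 10.24, 10.25 and 10.28 in cortex and 8.24, 8.59, 9.08, 9.1 and 9.1 in hippocampus (1.43 ± 0.16, adjusted p = 0.00284). Its lack of overlap was a condition of the rule that named it. *Kcnh1* (1.14), *Kcnh5* (1.12), *Kcnh3* (1.02) and *Kcnh4* (0.89) were higher with adjusted p between 0.00175 and 0.00674, and *Kcnh2* was lower (-0.33, adjusted p = 0.023), a call lost when mouse 1, 2, 3 or 4 was left out (adjusted p = 0.0576 to 0.0843). The silent subunit *Kcnv1* (1.32, adjusted p = 0.00196) and the beta subunit *Kcnab3* (1.25, adjusted p = 3.44e-04) were higher too. The sodium and calcium channel list had 10 higher and 7 lower of 23 (median 0.221). The sodium channel beta subunits were opposed, *Scn4b* higher (1.09, adjusted p = 0.00164) and *Scn3b* lower in cortex (-0.91, adjusted p = 0.00288), and the T-type calcium channel *Cacna1i* was higher (0.72, adjusted p = 0.00305). Without mouse 2, 12 potassium channel genes were higher and 4 lower, and 4 sodium and calcium channel genes were higher and 4 lower. The sodium and calcium channel counts were the same without mouse 1.

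Presynaptic genes were higher in cortex in 11 of 29 and lower in 5 (median 0.278), but the largest differences were negative. Besides *Slc17a6*, these were *Syt9*, a fast calcium sensor for release (-2.14, adjusted p = 0.00171), and *Doc2b*, a sensor of asynchronous and spontaneous release (-1.54, adjusted p = 0.00156). Trans-synaptic organizers were higher in 9 of 36 and lower in 6 (median 0.0918), and 24 had a positive difference. The largest differences nevertheless belonged to lower genes. These were *C1ql2*, *Ntng1* of the thalamic list, the cerebellin *Cbln1* (-1.72, adjusted p = 0.00367) and *Lrrtm1* (-1.03, adjusted p = 0.0023). The higher count was 6 without mouse 2 or mouse 5. *Slitrk6*, a neurite-controlling membrane protein outside that list, read 3.8, 3.69, 3.53, 3.58 and 3.92 in cortex and 7.5, 6.47, 5.92, 6.23 and 6.82 in hippocampus (-2.88 ± 0.17, adjusted p = 4.23e-04). Among signalling enzymes, 13 of 36 were higher and 6 lower. The largest difference was that of the thalamic *Prkcd* given above, followed among the lower genes by the inositol trisphosphate kinase *Itpkb* (-1.39, adjusted p = 9.92e-04) and the adenylyl cyclase *Adcy8* (-0.95, adjusted p = 0.0032). The higher ones included the striatal list genes *Pde10a*, a phosphodiesterase (0.64, adjusted p = 0.00622), and *Ppp1r1b*, the phosphatase inhibitor DARPP-32 (0.55, adjusted p = 0.0248). Neither was called without the mouse block (adjusted p = 0.156 and 0.149), and *Ppp1r1b* was not called without mouse 1, 2 or 5 (adjusted p = 0.0518 to 0.0864).

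Adhesion and guidance genes separated the regions in both directions. Among cadherins and protocadherins (8 higher and 4 lower of 26, the latter 2 without mouse 1, 4 or 5), *Pcdh20* was lower (-1.51, adjusted p = 1.79e-04) and *Cdh12* (1.04, adjusted p = 0.00131) and *Pcdh7* (0.93, adjusted p = 0.00175) were higher in cortex. Of 29 guidance receptors 12 were lower and 7 higher (median -0.155), and of 31 ligands 9 were lower and 6 higher (median -0.130), the largest difference being that of the thalamic list gene *Ntng1*. *Nrp2*, the neuropilin that binds class 3 semaphorins, read 6.18, 6.19, 6.1, 6.51 and 6.22 in cortex and 8.12, 7.75, 7.5, 8.17 and 7.8 in hippocampus (-1.63 ± 0.083, adjusted p = 2.30e-04). The ephrin receptors were opposed, with *Ephb6* at 8.45, 8.53, 8.52, 8.62 and 8.57 in cortex and 7.17, 7.32, 7.36, 7.35 and 7.5 in hippocampus (1.2 ± 0.058, adjusted p = 2.16e-04) and *Epha6* lower in cortex (-1.18, adjusted p = 0.0023). The ligand *Efna5* was higher (1.14, adjusted p = 0.00615) and *Slit1* lower in cortex (-1.12, adjusted p = 0.00341). The receptor counts were 7 lower and 4 higher without mouse 1, and 8 and 4 without mouse 2. In the Wnt, BMP and growth factor list (9 higher and 10 lower of 43) the 10 lower genes include *Tcf7l2*, with the largest difference, and *Lef1*, both of the thalamic list. The secreted protein *Dkkl1* read 7.79, 7.77, 7.49, 7.42 and 7.6 in cortex and 4.66, 5.79, 5.72, 5.52 and 5.87 in hippocampus (2.1 ± 0.20, adjusted p = 0.00172). *Bmp3* was higher (1.3, adjusted p = 0.00428) and *Tgfb2* lower in cortex (-1.74, adjusted p = 1.79e-04).

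Several genes with large positive differences belonged to none of the gene lists. *Gm765* read 7.25, 6.74, 6.36, 6.2 and 6.63 in cortex and 4.04, 4.11, 4.32, 4.47 and 4.57 in hippocampus and had the largest positive difference (2.34 ± 0.20, adjusted p = 0.00128). The T cell receptor joining segment *Trbj2-3* (2.27), the long noncoding RNAs *Gm13601* (1.94) and *9130024F11Rik* (1.53), the small membrane protein *Smim43* (1.86), the Rab27 effector family member *Exph5* (1.79), the heparan sulfate sulfotransferase *Hs3st2* (1.67), *Stac2* (1.48), the BMP antagonist *Chrdl1* (1.42) and the IGF-binding protein *Igfbp6* (1.42) were also higher in cortex, with adjusted p from 2.53e-04 to 0.00434. In *Igfbp6* the 5 cortex samples lay between 7.77 and 7.88 and the hippocampus samples between 5.87 and 6.9.

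Immediate early genes, which neurons induce within minutes of activity, were higher in cortex in 14 of 26 cases and lower in 2 (median 0.448). Without the mouse block 8 were higher. *Egr1* read 8.52, 8.76, 9.57, 8.88 and 8.77 in cortex and 7.0, 7.31, 8.14, 7.58 and 7.89 in hippocampus. Mouse 3 was highest in both regions, and the difference within a mouse ran from 0.878 to 1.52 (1.31 ± 0.10, adjusted p = 8.91e-04). *Nr4a1* (1.08, adjusted p = 0.0052), *Ier5* (1.04, adjusted p = 0.00399), *Egr3* (1.0, adjusted p = 0.00128) and the synaptic scaffold gene *Homer1* (0.91, adjusted p = 0.00432) followed. The 2 lower genes were the orphan nuclear receptors *Nr4a3* (-0.87, adjusted p = 0.0125) and *Nr4a2* (-0.76, adjusted p = 0.023), and *Nr4a2* lost its call without mouse 3, 4 or 5 (adjusted p = 0.0583 to 0.0768) and *Nr4a3* without mouse 1 or 2 (adjusted p = 0.0540 and 0.0544). *Fos* (0.78, adjusted p = 0.00699) and *Npas4* (0.65, adjusted p = 0.013), picked after their values were seen for their promoters, were higher in cortex in 5 of 5 mice, although the groups overlapped. *Npas4* was not called without mouse 1 (adjusted p = 0.0546), and without the mouse block neither gene was called (adjusted p = 0.0756 and 0.232).

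Promoter windows of 3 of the higher immediate early genes are shown as examples that hold a motif of activity-dependent promoters. Of the 14 higher genes, 10 had a RefSeq promoter entry (250 bases before to 50 after a start, build GRCm38.p6), and 5 of those held TGACGT, part of the cAMP response element that CREB binds, on either strand. *Nr4a1* and *Ier5* were among those without it. It was in 12 of the 20 list members with an entry and in 8.37% of 27025 genes with one, counting a gene with several starts once. The motif was chosen after the values were seen, was the only one searched, and is a description of letters only. Capitals mark each match, the *Fos* window is chr12:85473640-85473939 on the plus strand, *Homer1* is chr13:93303507-93303806 on the plus strand, and *Npas4* is chr19:4989922-4990221 on the minus strand, all written 5′ to 3′.
Fos: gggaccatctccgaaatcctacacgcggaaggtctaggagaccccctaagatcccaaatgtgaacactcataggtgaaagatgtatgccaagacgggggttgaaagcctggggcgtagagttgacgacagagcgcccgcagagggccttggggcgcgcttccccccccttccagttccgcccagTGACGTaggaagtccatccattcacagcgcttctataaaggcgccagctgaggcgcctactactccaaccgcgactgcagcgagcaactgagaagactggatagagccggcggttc
Homer1: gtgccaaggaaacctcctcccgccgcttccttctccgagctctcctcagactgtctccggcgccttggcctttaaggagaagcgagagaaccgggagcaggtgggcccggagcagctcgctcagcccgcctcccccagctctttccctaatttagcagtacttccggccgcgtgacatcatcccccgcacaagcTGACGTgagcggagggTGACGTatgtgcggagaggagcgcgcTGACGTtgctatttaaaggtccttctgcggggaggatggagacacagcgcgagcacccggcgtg
Npas4: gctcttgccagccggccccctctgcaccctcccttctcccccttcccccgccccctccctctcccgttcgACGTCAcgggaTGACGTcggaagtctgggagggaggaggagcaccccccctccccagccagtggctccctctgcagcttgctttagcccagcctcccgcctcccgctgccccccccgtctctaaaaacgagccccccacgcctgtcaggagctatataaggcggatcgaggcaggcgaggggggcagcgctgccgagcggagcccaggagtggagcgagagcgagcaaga
*Fos* has 1 match, *Npas4* 2 and this *Homer1* window 3, while a second *Homer1* window, chr13:93307784-93308083, has 0.

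Oligodendrocyte and astrocyte genes that were called were all lower in cortex. Of 20 oligodendrocyte genes 16 were lower in cortex and 0 higher (median -0.532), including the myelin cytoskeleton gene *Ermn* (9.79, 10.39, 10.17, 10.19 and 10.25 in cortex and 11.05, 11.03, 10.76, 10.81 and 10.68 in hippocampus, -0.71 ± 0.12, adjusted p = 0.00982) and transferrin, *Trf* (-0.68, adjusted p = 0.00722). The lower count was 6 without mouse 2 and 11 without mouse 1 or mouse 3. The list's mean level was 8.35 to 8.65 in cortex and 8.87 to 9.18 in hippocampus. Of 19 astrocyte genes 9 were lower and 0 higher (median -0.281). Angiotensinogen (*Agt*) read 6.47, 6.0, 6.25, 6.1 and 6.88 in cortex and 9.54, 9.42, 9.11, 8.81 and 9.21 in hippocampus (-2.87 ± 0.14, adjusted p = 2.30e-04), and *Gfap* (-1.42, adjusted p = 0.00106) and the water channel *Aqp4* (-1.12, adjusted p = 8.50e-04) were lower in cortex too. *Agt* was higher still in hypothalamus, with a mean of 9.84. The glutamate transporters *Slc1a2* (0.20 ± 0.057, adjusted p = 0.0646) and *Slc1a3* (-0.03 ± 0.058, adjusted p = 0.85) were not called, although *Slc1a2* was called higher in cortex without the mouse block (adjusted p = 0.0348). Of 14 microglial genes 3 were lower (21.4%, against 6.05% of all probe sets) and 0 higher, with 1 lower without mouse 1. Of 15 endothelial genes 1 was lower (6.67%, near the share of all probe sets) and 0 higher, with 0 lower without the mouse block. Of haemoglobin and erythroid genes 0 of 4 were called. *Pmch*, the hypothalamic melanin-concentrating hormone precursor, read 7.77, 4.49, 9.24, 8.04 and 5.28 in hippocampus and 3.77 to 4.72 in cortex. It was called (-2.86 ± 0.66, adjusted p = 0.0336), but the groups overlapped and the call was lost without mouse 1, 3 or 4 (adjusted p = 0.0631 to 0.11).

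Small RNA genes were looked at after the values were seen. Of 107 small nucleolar RNA probe sets 58 were lower and 0 higher in cortex, with a median of -0.505. *Snora64* read 7.48, 8.35, 7.12, 6.29 and 5.56 in cortex and 8.96, 9.08, 9.14, 7.37 and 8.35 in hippocampus (-1.62 ± 0.27, adjusted p = 0.0107), with wide spread and overlapping groups. *Snora28* differed by -1.29 ± 0.22 (adjusted p = 0.0113). The mean level of the class was 6.42 to 7.18 in cortex and 7.23 to 7.73 in hippocampus. Without the mouse block 34 were lower and neither named gene was called (adjusted p = 0.0544 and 0.0587), and without mouse 1 the count was 36. Whether RNA quality or the share of short RNA differed was not tested.

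Of 534 miRNA gene probe sets 8 were higher and 2 lower in cortex. That is 1.87% called, less than the 11.5% of all probe sets. The 2 largest differences among those called were positive. Both genes lie within longer transcripts, so miRNA and host transcript cannot be told apart. *Mir9-2* read 5.98, 5.92, 6.04, 6.14 and 6.5 in cortex and 5.14, 4.95, 5.26, 4.94 and 5.59 in hippocampus, without overlap (0.94 ± 0.074, adjusted p = 0.00102), and its host *C130071C03Rik* differed by 0.55 (adjusted p = 0.00468). *Mir128-1* read 5.06, 3.73, 4.84, 5.71 and 5.31 in cortex and 3.78, 3.62, 4.05, 4.63 and 4.0 in hippocampus, with overlap (0.91 ± 0.17, adjusted p = 0.0165). Its call was lost without mouse 1 (adjusted p = 0.0658) and without the mouse block (adjusted p = 0.0915), while *R3hdm1*, the gene around it, differed by 0.75 ± 0.080 (adjusted p = 0.0023). The mature sequences these 2 genes encode, from RefSeq (GRCm38.p6, plus strand of chromosomes 13 and 1), are shown with the seed, bases 2 to 8, in capitals.
mmu-miR-9-5p: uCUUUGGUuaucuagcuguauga
mmu-miR-9-3p: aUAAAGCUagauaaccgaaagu
mmu-miR-128-1-5p: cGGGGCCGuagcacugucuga
mmu-miR-128-3p: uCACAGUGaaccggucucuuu
The 4 seeds are different from one another.

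The same comparison in 5 PianpKO mice shares no sample with the control mice. There, 1569 probe sets (6.17%) were higher and 1714 (6.74%) lower in cortex. Of the 1390 called higher in control mice, 97.8% were also positive in PianpKO mice and 69.2% were called higher. Of the 1539 called lower, 98.8% were also negative and 71.7% were called lower. All 309 probe sets with a difference beyond 1 in control mice kept their sign, and 98 of the 99 higher and 200 of the 210 lower ones were called again. The 1 higher one not called was *Gm10754* (1.07, adjusted p = 0.0586 in PianpKO mice), and 6 of the 10 lower ones were small nucleolar RNAs. *Chrnb4* (-1.36, adjusted p = 0.065) was another of the 10. Across the 309 genes, which are not independent replicates and were chosen on the control values, Pearson's r between the 2 sets of differences was 0.984, and over all 25429 probe sets it was 0.86. The pseudogene *Gm8741* was the 1 probe set called in opposite directions (-0.56 in control and 0.45 in PianpKO mice), and its control call was lost without mouse 1, 3 or 4 (adjusted p = 0.0536 to 0.0696).

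The region difference itself was then compared between genotypes with an interaction term. No probe set was called by limma (0.0%), the lowest adjusted p was 0.998, and 1183 had an unadjusted p under 0.05, fewer than the 1271 that chance alone gives in as many tests. For *Prkcd* the difference was -4.58 in control and -4.06 in PianpKO mice, for *Npy2r* -3.15 and -3.44, and for *Htr2a* 1.31 and 1.30. *Pianp* itself differed by 0.39 ± 0.16 in PianpKO mice (adjusted p = 0.172), where its probe set still gave a reading. The thalamic list spread more widely in the PianpKO hippocampus, from 7.71 to 9.0, than in the control hippocampus, from 8.09 to 8.87.

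**Figure D5:**
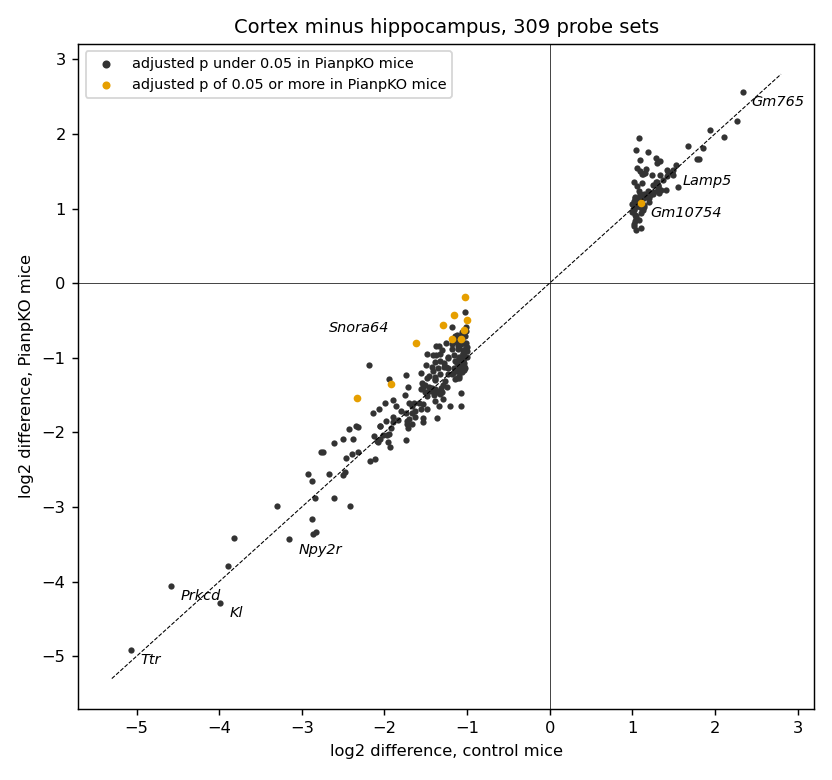
Log2 difference, cortex minus hippocampus, in PianpKO mice (vertical axis) against control mice (horizontal axis) for the 309 probe sets called with a difference beyond 1 in control mice, with a dashed line of equality. All points lie in the 2 quadrants of equal sign, and the 11 not called in PianpKO mice are coloured.

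Set beside the other 2 regions of the control mice, cortex had the highest mean of the 4 for 88 of the 99 probe sets that were higher by more than 1, and amygdala had it for 9 and hypothalamus for 2. Hippocampus had the lowest mean for 41 and hypothalamus for 55. Of the 210 lower by more than 1, cortex had the lowest mean for 178, and the highest mean lay in hippocampus for 159, in hypothalamus for 40 and in amygdala for 11. *Prkcd* and *Tcf7l2* belonged to the 159, with hippocampal means of 10.37 and 9.21 against 6.55 and 7.28 in hypothalamus. *Calb2* and *Agt* belonged to the 40. These counts are levels without a test.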

How the data were processed

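Total RNA from the punched regions (RNeasy) was hybridized to Mouse Gene 2.0 ST arrays, 1 array per sample. The authors normalized all 39 arrays together by RMA with a custom chip definition (version 21, by Entrez gene), and the deposited values are log2 levels of 25429 probe sets. No source used here states the RMA version. RMA includes quantile normalization, so all arrays have the same median (4.62) and a global shift between regions would not be seen. Of the probe sets 24675 carried a gene symbol and 754 did not. Arrays give no read depth, and the number of mice limits the precision (median SE 0.0786).

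Cortex was compared with hippocampus in limma 3.58.1 (R 4.3.3), with the mouse as a fixed block, which was tested on simulated data first. The mouse number in the labels pairs the 2 samples of an animal. Deviations from the group means of 2 samples of the same mouse correlated at -0.05 to 0.27 in control mice (median 0.019) and 0.075 to 0.27 in PianpKO mice (median 0.12). Samples of different mice had medians of -0.044 and -0.039 and reached 0.20 and 0.050. The cortex sample correlated best with the hippocampus sample of its own mouse in 2 of 5 control and 5 of 5 PianpKO mice. In control mice this correlation over all probe sets did not single out the pairs, and the pairing was taken from the labels. The 1 gene *Erdr1* kept the same order of control mice in both regions. It read 11.24, 10.92, 10.2, 11.72 and 11.13 in the cortex of mice 1 to 5 and 11.31, 10.94, 10.39, 11.55 and 11.26 in their hippocampus. No 2 arrays were identical. The Benjamini-Hochberg adjustment ran over all probe sets. A gene list is described by its counts and its median.

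A rule set the pool from which genes were named. It held the 15 higher and 15 lower symbols of largest difference with the same sign in all 5 mice and no overlap. For genes taken by that part of the rule, a lack of overlap was a condition and not a result. Over all probe sets, 5.05% were higher and 5.23% lower in cortex without overlap. It also held up to 5 called and 3 bright uncalled members per list, and the region markers. *Pianp*, *Erdr1*, *Ccl28* and *Actb*, and the genes of counts of 5 or fewer, completed it. Not every gene of the pool is named in the text. Those left out include called genes that went against their list's direction, such as higher genes of the subiculum and retrosplenial list, and many bright uncalled members. *Fos*, *Npas4*, *Snora64*, *Snora28*, *Mir9-2*, *Mir128-1*, *R3hdm1*, *C130071C03Rik*, *Drd2* and *Ppp1r1b* were picked after their values were seen. The members and lists were chosen with earlier results of these data known. Alternatives changed the block, the variance model, the normalization, the filter and the mice included. Sequences are from RefSeq tables.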

Additional observations from a re-analysis of the deposited data

Results flagged for a closer look

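In 316 groups of 5 samples, 11 single samples lay far from the rest of their group, by Dixon's criterion, which chance meets in about 1 in 20 groups. In the hippocampus of mouse 1, *Dkkl1* was 4.66 (others 5.52 to 5.87), *Gm13601* was 3.60 (4.43 to 4.65), *Smim43* was 5.17 (6.51 to 6.90) and *Gm10754* was 5.42 (6.18 to 6.41). In the hippocampus of mouse 3, *Prox1* was 7.68 (8.41 to 8.65) and *Nr4a3* was 7.41 (7.64 to 7.73). In the hippocampus of mouse 2, *Actb* was 11.44 (11.23 to 11.26). In the cortex of mouse 1, *Ccn2* was 7.55 (7.89 to 7.98) and *Adarb2* was 4.73 (5.20 to 5.31). In the cortex of mouse 2, *Dcx* was 5.71 (6.27 to 6.49), and in the cortex of mouse 4, *Slc1a3* was 10.54 (10.65 to 10.69).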

How the results depend on the processing

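Without the replicate block, 1429 probe sets were higher and 1597 lower in control cortex (99 and 202 by more than 1), and 1461 and 1574 in PianpKO cortex. The block changed no interaction call. Without it *Nr3c1* (adjusted p = 0.0205) and *Slc1a2* (0.0348) became called, and the other named calls that it moved are given with those genes. List counts moved as well, also where no count without the block is given above. Lower oligodendrocyte genes went from 16 to 13, higher sodium and calcium channel genes from 10 to 7 and higher interneuron genes from 9 to 7. Higher layer 2 to 4 genes went from 11 to 12. An ordinary linear model with the block, without moderation, called 479 higher and 459 lower (53 and 105 by more than 1), and a random block fitted over all 8 groups called 2111 higher. Quantile normalization of the 10 arrays and centring on the median changed no count. That outcome was fixed in advance, because the deposited values were already quantile normalized and all arrays had the same median. These 2 alternatives therefore do not test the normalization. Leaving out 1 mouse at a time gave 729 to 1149 higher and 828 to 1341 lower, and 69 to 125 and 176 to 227 by more than 1. Without the thalamic, choroid plexus and striatal list members, a choice made after seeing the data, 98 were higher and 190 lower by more than 1. The 58 lower small nucleolar RNAs became 34 without the block, 35 in the methods' ANOVA, 9 in the ordinary model and 36 to 56 with 1 mouse left out. The cause was not tested. Of the named genes 144 were called, and none of these reversed in any alternative. The ordinary linear model lost 62 of the calls, *Tbr1*, *Fezf2*, *Lamp5*, *Ttr* and *Pianp* among them, 11 were lost when some mouse was left out, and 10 in another alternative. *Nr4a1* was not called by the methods' ANOVA (adjusted p = 0.0829). The uncalled *Ccl28* (-0.01) ran from -0.10 to 0.10 with 1 mouse left out and turned sign without mouse 1 (0.10). Precision rests on 5 mice.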
